A study of Mus musculus with 6 samples.

Results

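The genes Fgr, Lyn, Syk, Btk, Plcg2, Vav1, Dock2, Ptpn6 and Inpp5d encode proteins that act just beneath the immune receptors of myeloid cells. They were chosen by name, as kinases, effectors and phosphatases of receptor-proximal signalling, with earlier results of these data known. All 9 were found among the 36557 gene rows, each with 1 row. The series holds RNA sequencing of mouse aorta, arch together with the thoracic portion, from 3 Apoe-/- control and 3 Apoe-/- MiR26b-/- samples, all taken after 4 weeks of high-fat diet (HFD). Both groups therefore carried the Apoe deletion, which makes mice prone to atherosclerosis, and differed by label only in the deletion of the microRNA gene Mir26b. Strain, age and sex are not given in the sources used here, and the labels do not tie each library to its own mouse, so the p-values reflect only how these libraries vary, which may be partly technical. The deletion of Mir26b is not stated to be restricted to any cell type. Below, the 3 Apoe-/- MiR26b-/- libraries are called the knockouts.

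Receptors that sense immune complexes or microbial sugars signal through short tyrosine motifs (ITAMs) on partner proteins. Src-family kinases phosphorylate these motifs, Syk docks on them and phosphorylates adaptors, and the adaptors gather Tec-family kinases such as Btk, the phospholipase Plcg2 and exchange factors such as Vav1 for the Rac GTPases. Phosphatases recruited by inhibitory receptors oppose several of these steps. In an atherosclerotic artery macrophages are a main carrier of this machinery, and B cells, neutrophils and mast cells use parts of it too.

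Library totals of the estimated counts ran from 51634139 to 54817547, and levels are given as CPM, the count scaled to a fixed total per library with TMM factors. Of 17392 genes tested with edgeR's quasi-likelihood test, 1131 (6.50%) were higher in the knockouts at a Benjamini-Hochberg adjusted p under 0.05 and 667 (3.84%) were lower. Scaling by library size alone gave 1476 and 447, which moves the share of higher among all calls from 62.9% to 76.8%. The first principal component held 59.0% of the variance, and on it knockout replicate 3 lay at 1.94, between the controls (-48.3 to -26.1) and the other knockouts (48.9 and 58.3). The level of the microRNA itself was not analysed here, so these values do not check the Mir26b deletion. Ctdsp1, the host gene of Mir26b, had a mean of 195 ± 3.65 CPM in the control group and 188 ± 6.84 CPM in the knockout group (SD, n = 3 each, edgeR adjusted p = 0.555). Reads assigned to Apoe were found in every library (27.9 ± 1.89 CPM in controls, 41.9 ± 3.28 CPM in knockouts) and rose in the knockouts (log2 difference 0.58, edgeR adjusted p = 0.0213).

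The mature microRNA of the deleted gene is shown first because its seed sets which transcripts the microRNA can pair with. It (RefSeq, GRCm38.p6, chr1:74394324-74394344, plus strand) is written 5′ to 3′ with the seed, bases 2 to 8, in capitals. The next line gives, from the GRCm38 genome, the only site of a searched class in the longest annotated 3′ UTRs of the 9 genes. The 7 bases of the site are in capitals.
mmu-miR-26b-5p: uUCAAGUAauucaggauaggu
Lyn: gccucaaaugACUUGAAcauuuuauaa
The Lyn site lies at chr4:3790772-3790778 on the plus strand, and it is of the weaker 7-mer-A1 class, ACUUGAA. This class pairs with bases 2 to 7 of the microRNA and ends in an A, and in Lyn base 8 is not matched. The search also covered the full 8-mer UACUUGAA, which contains the A1 class, and its first 7 bases. The other 8 genes held no match of any class. At least 1 such site was present in 20.9% of 15966 tested genes with an annotated 3′ UTR, so 1 of 9 genes is not above the share over all genes.

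Promoter windows from RefSeq (250 bases before to 50 bases after the start, GRCm38.p6) matched 8 of the 9 genes, with 9 starts since Syk had more than 1. The letters GAGGAA, a purine box of the kind that ETS-family factors such as the myeloid factor PU.1 can bind, were searched on both strands. They occurred in 6 of the 9 windows, against 28.3% of all 32851 promoters of this length. The stretches of 100 bases before the start are shown, 5′ to 3′ on the gene's strand, for the 4 starts where GAGGAA (capitals) stood on that strand within this stretch.
Vav1: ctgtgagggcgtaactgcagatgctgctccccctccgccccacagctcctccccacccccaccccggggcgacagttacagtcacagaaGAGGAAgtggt
Inpp5d: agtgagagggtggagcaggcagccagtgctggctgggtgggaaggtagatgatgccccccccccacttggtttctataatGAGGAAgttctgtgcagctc
Dock2: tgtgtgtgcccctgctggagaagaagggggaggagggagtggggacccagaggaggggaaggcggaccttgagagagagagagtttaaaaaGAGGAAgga
Syk: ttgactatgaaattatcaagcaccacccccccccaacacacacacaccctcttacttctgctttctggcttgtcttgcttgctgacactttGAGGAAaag
They lie at chr17:57279000-57279099 (plus strand), chr1:87620212-87620311 (plus), chr11:34783906-34784005 (minus) and chr13:52596782-52596881 (plus), in that order. No window of the 9 held TATAAA, which occurred in 8.32% of all promoters. The Plcg2 and Ptpn6 windows and the other Syk start held no GAGGAA, which says only that these letters are not there. These are matches of letters and no binding was measured.

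All 9 genes had higher mean levels in the knockouts, from 1.63-fold for Plcg2 to 4.14-fold for Vav1. Fgr, Lyn, Plcg2, Vav1 and Inpp5d rose past the threshold of edgeR's test (5 of 9), none fell, and Syk, Btk, Dock2 and Ptpn6 did not pass (adjusted p 0.0581 to 0.0915). The median log2 difference of the 9 was 1.51, beside a median of -0.00 over all tested genes. For each of the 9 genes the lowest knockout lay above the highest control in CPM, an order found in 18.9% of all tested genes. Without knockout replicate 3, edgeR called all 9 higher (17.2% of all genes tested then). Without any single other library it called none of them, at fits that called 0 to 52 genes higher in all. In those fits 8 or 9 of the 9 had an unadjusted p under 0.05. So did 3710 to 4627 of the 17638 to 17760 genes tested, in either direction. DESeq2 on the same 6 libraries called all 9 higher, beside 12.0% of tested genes, and with 1 library left out it called 5 to 9. It called 5 without knockout replicate 1 or without knockout replicate 2 (6.63% and 6.73% of all genes tested then), 6 without control replicate 1 (8.35%), and 9 without control replicate 2, control replicate 3 or knockout replicate 3 (10.6%, 8.14% and 17.6%).

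**Figure D1:**
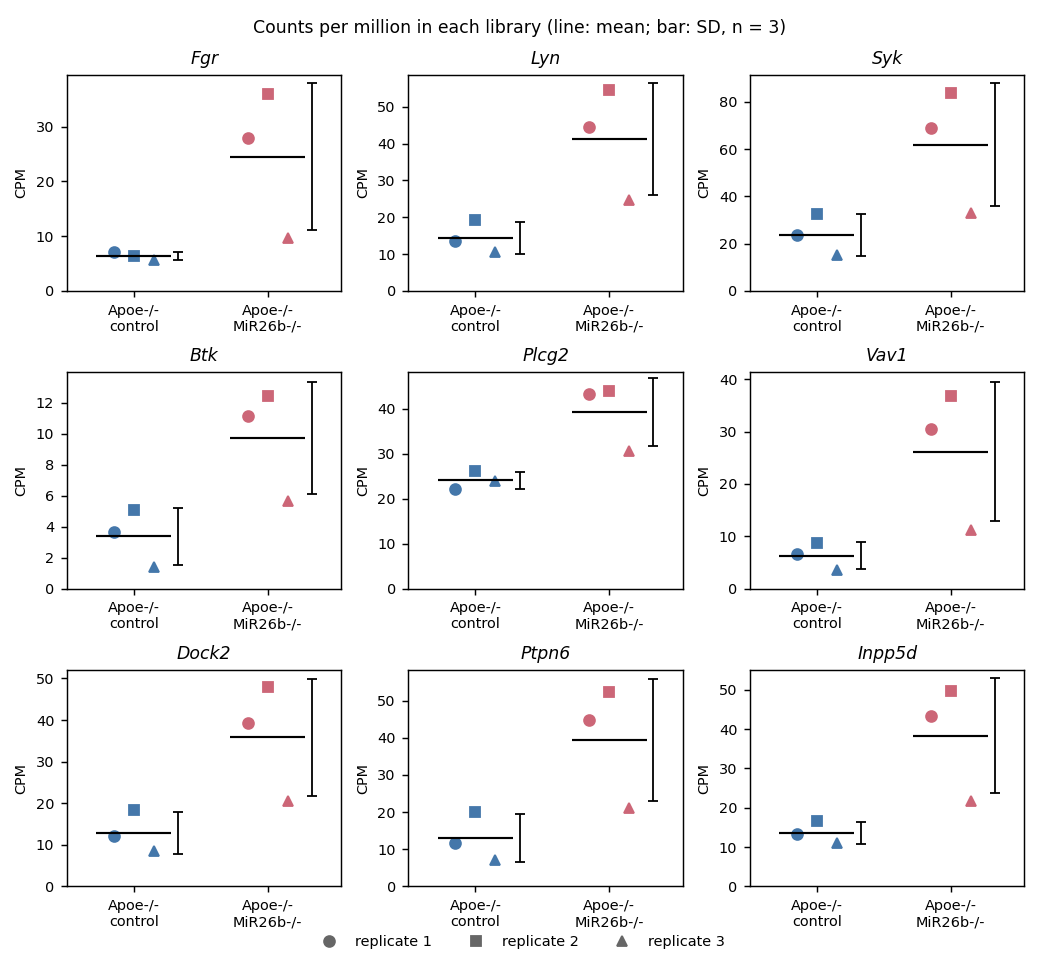
CPM (linear axis from 0) of the 9 genes in each of the 6 libraries, with the group mean as a line, the SD (n = 3) as a bar and the replicate number as the symbol. In each of the 9 panels the knockout replicate 3 triangle is the lowest knockout and still lies above the highest control, with the narrowest margin for Syk (33.0 against 32.5 CPM).

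The kinases that start the cascade were the Src-family members Fgr and Lyn. Fgr (chr4:132974095-133001910, plus strand) is expressed mainly in neutrophils, monocytes and macrophages. Its level was 7.02, 6.42 and 5.58 CPM in the controls and 27.9, 35.9 and 9.71 CPM in the knockouts. The controls lay close together, and knockout replicate 3 was nearer to them than to the other knockouts. The difference was 3.87-fold (log2 1.95, SE 0.45, edgeR adjusted p = 0.0443).

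Lyn (chr4:3678115-3813122, plus strand) both starts signals and, through inhibitory receptors, dampens them. Control values were 13.6, 19.1 and 10.6 CPM, and knockout values 44.6, 54.4 and 24.5 CPM. Every knockout was above every control, with the lowest pair 24.5 against 19.1 CPM. The means were 14.4 ± 4.36 and 41.2 ± 15.2 CPM (SD, n = 3), a 2.85-fold difference (log2 1.51, SE 0.33, edgeR adjusted p = 0.0416). Src-family transcripts resemble each other in sequence, so the split of reads between Fgr, Lyn and their relatives by pseudoalignment is uncertain. Antisense genes, among them Gm26857 and Gm11805, overlap the span of Lyn in the annotation, introns included. Whether their exons overlap those of Lyn was not examined, and strandedness is not stated, so it is not known whether reads are shared. The same holds for antisense genes over Btk (Gm15154), Plcg2 (Gm27361), Dock2 (4930403D09Rik and Fam196b) and Ptpn6 (Gm20531).

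Syk (chr13:52583173-52648792, plus strand) is the kinase that docks on the phosphorylated motifs. Its values were 23.5, 32.5 and 15.0 CPM in controls and 68.8, 83.7 and 33.0 CPM in knockouts. Here the groups almost touched, since knockout replicate 3 lay just above control replicate 2. The 2.61-fold difference (log2 1.39, SE 0.40) did not pass (edgeR adjusted p = 0.0716).

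Btk (chrX:134542336-134583570, minus strand), the Tec-family kinase that activates phospholipase C gamma, had the lowest level per transcript length. Counts were 3.64, 5.09 and 1.42 CPM in controls and 11.2, 12.5 and 5.65 CPM in knockouts. Its control libraries were spread most widely of the 9 genes, with control replicate 3 far below control replicate 2. The 2.88-fold difference (log2 1.53, SE 0.49) was not past the threshold (edgeR adjusted p = 0.0915). Btk is also a B-cell gene, and the summed B-cell markers were 76.9 CPM in control replicate 2 and between 9.44 and 29.5 CPM in the other libraries. Cd22 made up most of the sum in knockout replicates 1 and 2 (15.2 and 20.2 CPM), and the other 6 markers, all with negative log2 differences, summed to between 6.82 and 9.34 CPM in the knockouts and to 62.7 CPM in control replicate 2. The part of B cells in the Btk values was not tested.

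Plcg2 (chr8:117498291-117635142, plus strand) encodes the phospholipase that releases the second messengers for calcium entry. Its values were 22.2, 26.1 and 23.8 CPM in controls and 43.3, 44.0 and 30.5 CPM in knockouts. Both groups were narrow, and the order of the controls differed from that of most of the other genes, in that control replicate 3 was not the lowest. It rose by 1.63-fold, the smallest difference of the 9 with the smallest standard error (log2 0.71, SE 0.15, edgeR adjusted p = 0.0384).

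The Rac activators were Vav1 and Dock2. Vav1 (chr17:57279100-57328031, plus strand), an exchange factor of blood cells that Syk phosphorylates, was measured at 6.54, 8.75 and 3.64 CPM in controls and 30.5, 36.8 and 11.2 CPM in knockouts. Knockout replicates 1 and 2 stood far above all controls and knockout replicate 3 only a little above control replicate 2. Its 4.14-fold difference was the largest of the 9 (log2 2.05, SE 0.50, edgeR adjusted p = 0.0495).

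Dock2 (chr11:34226815-34783892, minus strand) activates Rac in migrating leukocytes. It was at 12.0, 18.4 and 8.41 CPM in controls and at 39.2, 47.9 and 20.4 CPM in knockouts. The margin between the groups was again that of knockout replicate 3 over control replicate 2. The 2.77-fold difference (log2 1.47, SE 0.39) did not pass (edgeR adjusted p = 0.0581).

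The phosphatases that oppose the kinases were Ptpn6, the tyrosine phosphatase SHP-1, and Inpp5d, the inositol lipid phosphatase SHIP1. Ptpn6 (chr6:124720707-124738714, minus strand) was measured at 11.6, 19.9 and 7.17 CPM in the control group and 44.7, 52.4 and 21.0 CPM in the knockout group. Knockout replicate 3 was only slightly above control replicate 2, and in the deposited TPM it was below it (18.8 against 20.8). The 3.05-fold difference in counts (log2 1.61, SE 0.46) did not pass (edgeR adjusted p = 0.0694).

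Inpp5d (chr1:87620312-87720507, plus strand) lies 13.2 Mb from Mir26b on the same chromosome. Its CPM were 13.3, 16.7 and 11.1 in controls and 43.4, 49.7 and 21.8 in knockouts. All knockouts lay above all controls, and the means of 13.7 ± 2.80 and 38.3 ± 14.6 CPM (SD, n = 3) differed 2.80-fold (log2 1.48, SE 0.31, edgeR adjusted p = 0.0387). On the deposited TPM scale the groups overlapped, since control replicate 1 (8.62) and control replicate 2 (7.62) both exceeded knockout replicate 3 (7.60). The count per deposited TPM, which follows the transcript length that the estimate assigns to the gene, varied 1.88-fold between libraries for Inpp5d, more than in 99.4% of 13334 genes (median 1.07-fold). Ptpn6 varied 1.27-fold. Across the 9 genes, 7 had all knockouts above all controls in TPM, an order held by 19.4% of tested genes.

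**Figure D2:**
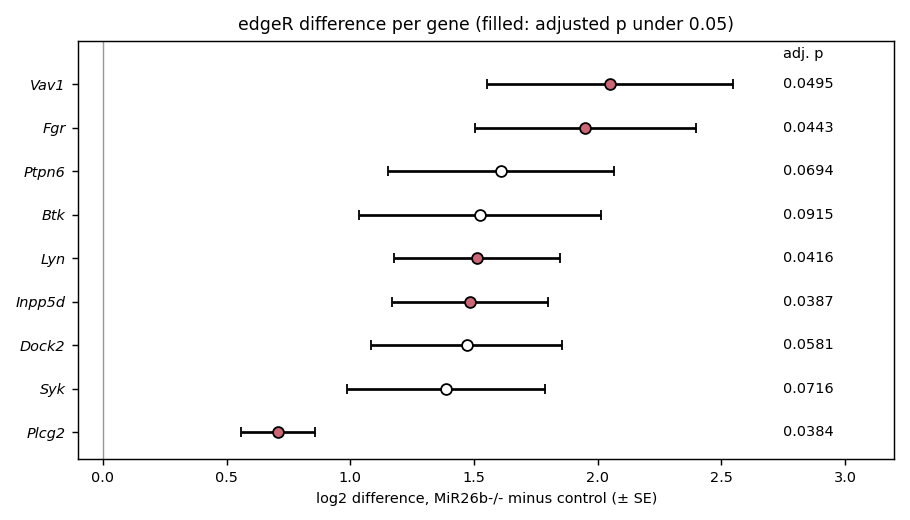
Log2 difference, Apoe-/- MiR26b-/- minus control, of the 9 genes from the edgeR fit to all 6 libraries, with the standard error as a bar and filled points for an adjusted p under 0.05. The differences run from 0.71 for Plcg2 to 2.05 for Vav1, and Plcg2 has the shortest error bar.

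The libraries were ordered in nearly the same way for each gene. Knockout replicate 2 was the highest knockout and knockout replicate 3 the lowest in 9 of 9 genes, and control replicate 2 was the highest control and control replicate 3 the lowest in 8 of 9 each. Relative to the control mean, the median fold of the 9 genes was 3.17 in knockout replicate 1 (1.80 to 4.83), 3.70 in knockout replicate 2 (1.83 to 5.84) and 1.60 in knockout replicate 3 (1.27 to 1.78). The gene nearest to the mean pattern of the 9 was Lyn, with a root mean square distance of 0.0654 on the log2 scale over 6 libraries, and the farthest was Plcg2 at 0.491. Among tested genes outside the set, the nearest patterns were those of Ncf1 (distance 0.0283), a subunit of the phagocyte NADPH oxidase, Lpxn (0.0559), Adap2 (0.0597), Hcls1 (0.0607), a Src-family and Syk substrate of blood cells, and Gpr132 (0.0614).

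Per unit of transcript length, on the deposited TPM scale, Ptpn6 had the highest level in 5 of 6 libraries and was second to Plcg2 in control replicate 3. Its TPM were 11.8, 20.8 and 5.93 in controls and 37.7, 47.1 and 18.8 in knockouts. Btk was last in all 6 libraries and Dock2 seventh or eighth in each. Syk and Lyn followed Ptpn6, with mean ranks of 3 and 3.33, and their ranks overlapped, as did those of Inpp5d, Vav1 and Fgr (mean ranks 4.5, 5.83 and 6.5). Plcg2 moved most in this order, between first in control replicate 3 and seventh in knockout replicate 2.

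Whether the genes kept their proportions was examined with 8 log2 ratios of CPM within libraries, which do not depend on library scaling. An exact permutation test of 3 against 3 (two-sided) cannot give a p below 0.1, so no ratio could pass. The ratio of Inpp5d to Plcg2 was -0.72, -0.63 and -1.07 in controls and 0.00, 0.17 and -0.47 in knockouts, a difference of 0.71 with no overlap (exact permutation p = 0.1, Benjamini-Hochberg adjusted p = 0.4). Ptpn6 to Syk also had no overlap, with a difference of 0.25 (exact permutation p = 0.1, adjusted p = 0.4). On the deposited TPM both of these ratios overlapped between groups. There Inpp5d to Plcg2, as a plain ratio, was 1.06, 0.81 and 0.50 in controls and 1.14, 1.26 and 0.678 in knockouts, and its log2 difference was 0.39. Ptpn6 to Syk was 1.57, 2.05 and 1.26 against 1.73, 1.78 and 1.78. The other ratios with a phosphatase overlapped between groups, with differences of 0.14 for Ptpn6 to Lyn (exact permutation p = 0.7) and -0.20 for Inpp5d to Ptpn6 (exact permutation p = 0.6). Fgr to Lyn (0.24) and Btk to Syk (0.13) likewise overlapped between groups, as did Vav1 to Dock2 (0.47) and Plcg2 to Btk (-0.78). On the TPM scale Btk to Syk and Vav1 to Dock2 did not overlap, so which ratios separate the groups differs between the scales.

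Markers of macrophages moved with the 9 genes. Of 12 macrophage markers, 10 rose and 1, Mertk, fell in edgeR's test, and their summed level was 778 to 949 CPM in controls and 1595 to 3936 CPM in knockouts. Ptprc, the gene of the pan-leukocyte surface protein CD45, had means of 24.0 and 67.6 CPM (log2 difference 1.49, edgeR adjusted p = 0.0926). In such whole tissue, more cells of a type and more RNA per cell cannot be told apart. When each gene was set against the mean log2 level of the 12 macrophage markers in the same library, Vav1 differed between groups by 0.43 and Fgr by 0.23. Both overlapped between groups, with knockout replicate 3 at -2.70 for Vav1 (controls -3.12 to -2.34) and -2.90 for Fgr (controls -2.75 to -2.56). Syk, Inpp5d, Dock2, Lyn, Btk and Ptpn6 differed by -0.13, -0.07, -0.04, -0.01, 0.004 and 0.13. The marker mean includes Mertk (log2 difference -0.26) and Cd163 (-0.21, edgeR adjusted p = 0.403), which were not higher in the knockouts. The size and sign of differences from it therefore depend on the markers included. A mean of the 10 markers that rose was not computed. Plcg2 was lower relative to the macrophage markers (difference -0.78), with -1.02, -0.81 and -0.56 in controls and -1.65, -1.78 and -1.30 in knockouts. Thus 3 of 3 knockouts lay below the lowest control. Against Ptprc, Plcg2 differed by -0.87 and the groups overlapped (-0.08, -0.51 and 1.06 in controls, -0.78, -1.02 and -0.32 in knockouts). These relations were not tested.

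**Figure D3:**
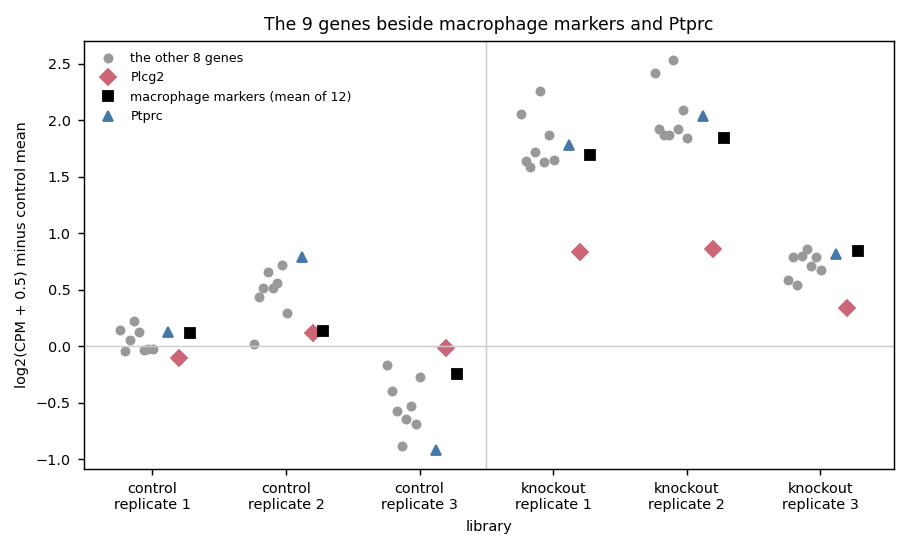
Log2(CPM + 0.5) minus the control mean in each library for Plcg2 (diamonds), the other 8 genes (grey circles), the mean of 12 macrophage markers (squares) and Ptprc (triangles). In the 3 knockout libraries Plcg2 lies below the other 8 genes, the macrophage markers and Ptprc, and in knockout replicate 3 all of these lie nearer to the controls.

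Other cell types that use these genes were followed by marker lists. Monocyte markers rose in 2 of 5 (summed 14.4 to 40.2 CPM in controls, 57.2 to 124 CPM in knockouts) and neutrophil markers in 1 of 6 tested (5.31 to 11.3 and 11.7 to 55.6 CPM), while Ly6g, which defines neutrophils, was at or near 0 and too low to be tested. Dendritic cell markers rose in 3 of 6 and NK cell markers in 2 of 4 tested. No listed marker was at 0 in all libraries. No B-cell, T-cell or mast-cell marker passed (0 of 7 each), and 3 of 7 smooth muscle markers fell (31746 to 36467 CPM in controls, 21499 to 25511 CPM in knockouts). Fibroblast markers rose in 3 of 6, with all 6 differences positive (3815 to 4411 CPM in controls, 5219 to 7003 CPM in knockouts), and the fibroblast marker Lum, a matrix proteoglycan, was 3.42-fold higher (edgeR adjusted p = 0.0304). Endothelial markers rose in 2 of 7, and of 4 tested lymph node markers 1 rose, the chemokine Ccl21a (4.32-fold, edgeR adjusted p = 0.0161). Perivascular fat differed between libraries within both groups. Summed brown fat markers were 1230, 674 and 448 CPM in controls and 274, 311 and 867 CPM in knockouts (0 of 9 called). Summed white fat markers were 1492, 1402 and 933 CPM in controls and 563, 722 and 1337 CPM in knockouts (0 of 8 called). Both sums were highest in replicate 3 among the knockouts and lowest in replicate 3 among the controls. With a fat score from 17 markers as a covariate the differences of the 9 genes stayed positive and none passed (edgeR adjusted p 0.0827 to 0.257), with 157 genes called higher in all. An unadjusted p under 0.05 was found for 6 of the 9, and for 4171 of 17392 tested genes in either direction. The part of these cell types in the levels of the 9 genes was not tested.

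The wider pathway was read from 88 genes in 9 role lists, of which 87 were tested. Of these, 27 (31.0%) rose and 2, Pik3ca and Ptpn11, fell, beside 6.50% and 3.84% of all tested genes, and the median log2 difference was 0.65. With scaling by library size alone neither of the 2 passed. The lists were chosen with earlier results of these data known, so the share that rose is no independent comparison with all genes. Among inhibitory receptors, which recruit Ptpn6 and Inpp5d, 10 of 11 rose (median log2 2.07). Lair1, a collagen receptor of this class, went from 4.57 ± 0.579 to 19.7 ± 7.29 CPM (4.30-fold, edgeR adjusted p = 0.0218), and Clec12a, Cd300a and Pilra rose 4.11-, 4.08- and 5.13-fold (edgeR adjusted p 0.0255, 0.0294 and 0.0307). Cd22, a B-cell receptor of this list, did not pass. Of 7 receptor adaptors in the ITAM adaptor list, not all of which carry an ITAM, 2 rose. They were Tyrobp (15.8 ± 2.19 to 74.0 ± 34.3 CPM, 4.68-fold, edgeR adjusted p = 0.0300) and Fcer1g (4.19-fold, edgeR adjusted p = 0.0325). Hcst (log2 1.46) and the B-cell adaptor Cd79a (log2 -1.88) did not pass. The Cd79a value rests on control replicate 2, at 15.4 CPM against 1.17 to 2.08 CPM in the other libraries, and without it the difference was -0.22.

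Among the other kinases the pattern was mixed. Among other Src-family genes the widely expressed Fyn rose (1.29-fold, edgeR adjusted p = 0.0328). Src (log2 -0.23) and Yes1 (log2 -0.17) did not pass. Tec rose 2.99-fold (edgeR adjusted p = 0.0458). Its relatives Txk and Bmx and the Syk-family kinase Zap70 did not pass, which made 1 of 5 in the list of Syk-family and Tec-family kinases. In the list of adaptors 5 of 13 tested rose, including Lat2 (5.54-fold), Pik3ap1 (4.45-fold), Lcp2 (2.95-fold) and Themis2 (2.91-fold), with edgeR adjusted p of 0.0337, 0.0332, 0.0402 and 0.0328.

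Of 8 listed phospholipase and PI3-kinase genes, 4 rose. Among them were Plcb2 (3.85-fold), Pik3r5 (3.99-fold) and Pik3cg (2.31-fold), with edgeR adjusted p of 0.0377, 0.0428 and 0.0397. Pik3ca, the catalytic subunit found in most cells, fell (log2 -0.22, edgeR adjusted p = 0.0356). Plcg1 (log2 0.01), Pik3r1 (log2 0.13) and Pik3r6 (log2 0.53) did not pass. Among 15 phosphatases and other brakes Dok2 rose (2.56-fold, edgeR adjusted p = 0.0290) and Ptpn11 fell (log2 -0.28, edgeR adjusted p = 0.0417), while Ubash3b (log2 1.63) and Sla (log2 1.60) did not pass. Of 9 downstream kinases and Ras exchange factors, Card9 rose (3.04-fold, edgeR adjusted p = 0.0425), and Rasgrp4, Itpkb and Prkcd did not pass.

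**Figure D4:**
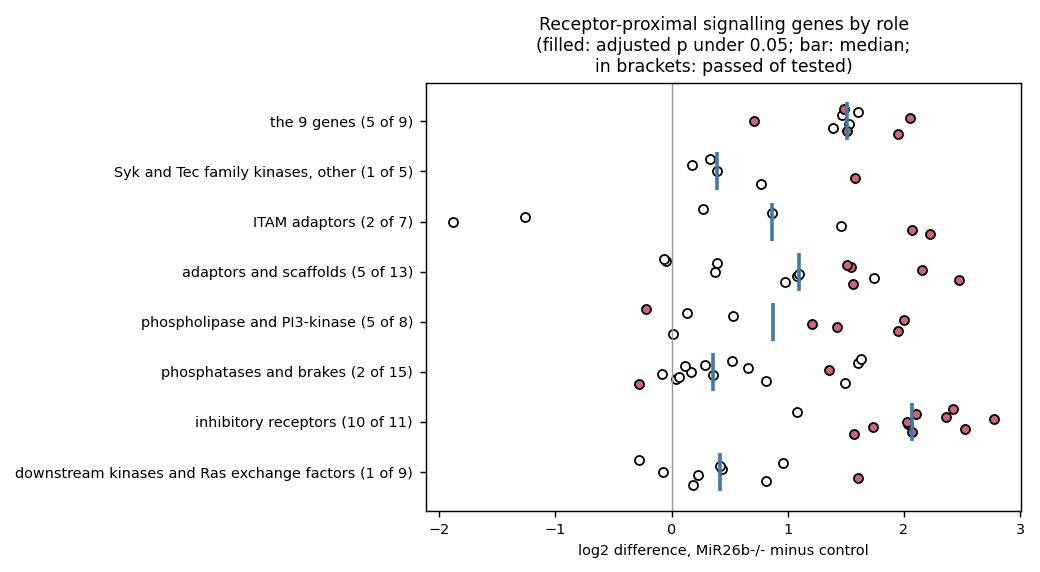
Log2 difference, Apoe-/- MiR26b-/- minus control, of the 9 genes and of the tested genes of 7 role lists, 1 point per gene, filled for an edgeR adjusted p under 0.05, with the list median as a bar. Inhibitory receptors lie furthest to the right (median 2.07, 10 of 11 filled), and in the phospholipase and PI3-kinase list Pik3ca is the filled point below 0 (-0.22).

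Several of the 9 genes have a close relative that most cells of the artery wall express, and these relatives were compared after their values had been seen, without a test. On the deposited TPM scale the ratio of Ptpn6 to Ptpn11 (SHP-2) was 0.179, 0.343 and 0.0869 in controls and 0.686, 0.936 and 0.341 in knockouts. Vav1 to Vav2 was 0.554, 0.530 and 0.303 in controls and 1.68, 1.80 and 0.740 in knockouts, and Dock2 to Dock1 was 0.245, 0.342 and 0.144 against 0.713, 0.958 and 0.404. In these 2 pairs the knockouts lay above all controls, whereas for Ptpn6 to Ptpn11 knockout replicate 3 fell just below control replicate 2. The ratio of Plcg2 to Plcg1 was 0.152, 0.178 and 0.158 in controls and 0.320, 0.327 and 0.220 in knockouts, also without overlap. Inpp5d to Inppl1 was 0.216, 0.197 and 0.118 in controls and 0.455, 0.492 and 0.189 in knockouts, where knockout replicate 3 lay below 2 of the controls. By themselves, Vav1, Dock2 and Plcg2 also had all knockouts above all controls in TPM, an order held by 19.4% of tested genes. The share of this order among ratios of other gene pairs was not computed. Of the relatives themselves Plcg1 (log2 0.01), Inppl1 (0.04), Dock1 (-0.11) and Vav2 (0.44) did not pass edgeR's test, and Ptpn11 fell as given above.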

How the data were processed

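The submitters' processing notes name kallisto 0.46.2, which assigns reads to transcripts without alignment, beside Trim Galore 0.6.5, FastQC 0.11.8 and the build GRCm38. The deposited estimated counts are not whole; within each library low values step by a constant of 0.901 to 1.07, and no label records a scaling. The second deposited table holds TPM values whose columns sum to 955527 to 1034723, so the authors' values are used as a signal. Groups came from the labels. Estimated counts were rounded, filtered (filterByExpr, minimum count 10), TMM scaled and tested over all genes with edgeR 4.0.16 in R 4.3.3, and limma 3.58.1 and DESeq2 1.42.0 served as alternatives. Standard errors are the log2 difference divided by the root of F. The fit was tested on simulated data. Ratios used CPM + 0.5. The members and lists were chosen with earlier results of these data known. Named genes are the members, up to 4 tested genes of lowest p per role list, Ctdsp1, Apoe, markers, and the 5 genes nearest in pattern without a predicted or clone name and with mean log2 CPM 0 or more; relatives were added after their values were seen. Sites and coordinates came from GENCODE mouse annotation on GRCm38. Some genes and 1 role list are counted in the totals and not reported here by name.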

Additional observations from a re-analysis of the deposited data

How the results depend on the processing

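All 9 genes kept a positive log2 difference under every alternative run, and no result reversed. With other count scalings, filters, summed rows or undone constants 5 of 9 stayed called, beside 4.28% to 8.66% of tested genes called higher. Limma-voom called 0 of 9 (adjusted p 0.0543 to 0.113), beside 3.21% of tested genes called higher. All 9 had an unadjusted p under 0.05 there, as did 5297 of 17392 tested genes in either direction. Limma on log2(TPM + 1) called 0 (2.65% of all) and on log2(TPM + 0.1) 0 (3.69%). With the fat covariate edgeR called 0 (0.903%), and 6 had an unadjusted p under 0.05, beside 4171 of all tested genes. DESeq2 called 9 (12.0%). With 1 library left out edgeR called 0 to 9 of the 9, the 9 without knockout replicate 3.

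Over all genes, the counts of higher and lower calls were 2086 and 1357 with DESeq2, 461 and 251 with log2(TPM + 1), 641 and 301 with log2(TPM + 0.1) and 157 and 139 with the fat covariate; limma-voom called 559 higher. With 1 library left out edgeR called 0 to 3051 higher and 0 to 2028 lower, the highest values without knockout replicate 3. DESeq2 with 1 library left out, added after seeing the data, ran from 1172 to 3127 higher (1482, 1883 and 1445 without control replicates 1, 2 and 3; 1172, 1187 and 3127 without knockout replicates 1, 2 and 3), with 6, 9, 9, 5, 5 and 9 of the 9 genes called in that order; lower calls were 1191 without control replicate 2 and 2552 without knockout replicate 3.

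Among pathway genes (27 higher, 2 lower) the higher calls were 42 with DESeq2, 7 with limma-voom, 8 with log2(TPM + 1), 13 with log2(TPM + 0.1) and 1 with the fat covariate. They ran from 0 to 51 with 1 library left out in edgeR, and were 45 without control replicate 2 and 54 without knockout replicate 3 in DESeq2. The lower calls were 0 with library size alone, both TPM scales and the fat covariate, 1 with no low-count filter, and 0 without each library but knockout replicate 3. The ratio of Inpp5d to Plcg2 differed by 0.39 on deposited TPM + 0.1 against 0.71 on CPM. The cause of these changes was not tested.

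Over all tested genes, deviations from group means had r of -0.07, 0.22 and 0.08 between same-numbered libraries. Differently numbered libraries had r of -0.19 to 0.10. In the mean pattern of the 9 genes, however, replicate 2 was highest and replicate 3 lowest in both groups. Its centred log2 CPM was -0.68, -0.29 and -1.18 in controls and 0.98, 1.21 and -0.04 in knockouts. The labels name no pairs, so the numbers were not taken as pairs. With a replicate block 8 of the 9 genes passed, all but Fgr, beside 1295 (7.45%) of all tested genes called higher, and 43 pathway genes rose. The block moved the standard error from 0.46 to 0.12 for Ptpn6 and from 0.15 to 0.13 for Plcg2. Precision is limited by 3 libraries per group, with the largest standard errors for Vav1 and Btk.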
